A study of Homo sapiens with 12 samples.

Results

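The genes described here are the solute carriers of the cell line HepG2, leaving out the main carriers of zinc, copper and iron and a few carriers described with other pathways. They were chosen by name and by level: the symbol had to begin with SLC and a digit, and the mean over all 12 libraries had to reach 5 CPM (a gene's count divided by the library's total and scaled to a common depth). The SLC30, SLC31 and SLC39 families and SLC2A1, SLC2A2, SLC2A3, SLC7A11, SLC11A2, SLC40A1 and SLC25A20 were left out by name. Of 502 gene symbols of that form among the 47634 genes listed, 39 were left out by name, 146 more had no count in any library, 171 had counts but a mean under 5 CPM, and 146 made up the set. The lowest members were SLC35A1 with a mean of 5.04 CPM, SLC36A1 with 5.06 CPM and SLC11A1 with 5.09 CPM, and the nearest genes left out were SLC22A11 with 4.88 CPM, SLC25A12 with 4.76 CPM and SLC22A7 with 4.70 CPM. The rule used the mean level of all libraries and no contrast between groups. In 34 of the 146 members at least 1 group averaged under 5 CPM, and 5 members were under it in 3 of the 4 groups. These entered through the group in which they were high: SLC5A11 and SLC36A1 through KO copper cells, and SLC2A14, SLC27A1 and SLC35A1 through untreated WT cells. They are in the counts below, and no test of them is given as a result. Other members were under 5 CPM in both groups of a line or of a treatment, among them SLC26A1 in WT cells and SLC6A4 and SLC5A9 in copper. They entered through the remaining groups, so their differences from those groups are a description. The 146 members all passed the filter on low counts. Some members still carry a metal or haem, among them SLC41A1 and SLC41A3 for magnesium, SLC11A1 and SLC25A37 for iron and SLC48A1 for haem.

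HepG2 is a human hepatocellular carcinoma line that keeps many functions of hepatocytes. The 4 groups of 3 libraries each were HepG2 cells with ATP7B knocked out (KO) given copper for 24 h, untreated KO cells, wild type (WT) HepG2 cells given copper for 24 h, and untreated WT cells. The product of ATP7B, which is lost in Wilson disease, pumps copper out of the cytosol. The labels name ATP7B KO cells without giving the number of lines or clones. They call the replicates biological and give neither the copper dose nor the position of the edit. A difference between KO and WT cells is therefore a difference between edited and unedited HepG2 cells, and cannot be told apart from a difference between clones.

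Solute carriers are membrane proteins that move small molecules with the help of a gradient rather than by splitting ATP. In the hepatocyte they import amino acids, citrate and sugars from the blood, exchange metabolites between cytosol and mitochondria, export lactate, ketone bodies and bile components, and carry nucleotide sugars into the Golgi apparatus and the endoplasmic reticulum (ER). Many amino acid carriers are known targets of the transcription factor ATF4, which is made when amino acids are short or proteins are misfolded.

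Library totals ran from 976658 to 3829151 counts, so that 3 counts were worth 3.07 CPM in KO untreated replicate 2 and 0.783 CPM in WT untreated replicate 2. A set of 3 libraries stood apart from the rest in a principal component analysis of all genes: KO untreated replicates 1 and 2 and WT copper replicate 1. Their values on the first component, which held 44.2% of the variance, were 111, 120 and 23.9, and the other 9 libraries were below 0. In KO untreated replicate 2, 50.7% of the 146 members and 44.5% of all genes tested lay more than 1 log2 unit from KO untreated replicate 3, and in replicate 1, 38.4% and 41.4% did. In WT copper replicate 1, 17.1% of members and 17.4% of all genes lay as far from the mean of the other WT copper libraries. The tests were therefore also run without these 3 libraries, which is called the 9-library fit. There KO untreated replicate 3 is the only library of its group and is assumed to vary like the others. ATP7B itself had 3.92, 4.19 and 6.77 CPM in KO copper libraries, 9.01, 2.05 and 11.6 CPM in KO untreated libraries, 5.34, 3.92 and 3.87 CPM in WT copper libraries and 12.7, 13.1 and 12.4 CPM in WT untreated libraries. The 3′ read counted here need not lie in the edited part, so it does not check the label. The 10 hepatocyte markers tested were detected in every library, and their sum was 4952 to 5053 CPM in KO copper, 10231 to 13958 CPM in KO untreated, 12064 to 13478 CPM in WT copper and 27562 to 27957 CPM in WT untreated libraries. Of the markers of other cell types, PTPRC of leukocytes had 1 count in all 12 libraries together, VWF and CDH5 of endothelium had 20 and 8, and KRT7 of bile duct cells had 9. The leukocyte list of 3 was nearly all LYZ and summed to 185 to 224 CPM in KO copper, 209 to 426 CPM in KO untreated, 287 to 844 CPM in WT copper and 1347 to 1468 CPM in WT untreated libraries. KRT19 and SPP1 of the bile duct list made its sum 831 to 876, 934 to 1045, 915 to 960 and 489 to 543 CPM in the same order, and the 4 fibroblast markers summed to 2.08 to 51.4 CPM over all libraries. The part of the markers' level in the results below was not tested, and in bulk RNA fewer cells with a transcript cannot be told apart from less of it per cell.

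With copper in KO cells 22 members rose and 34 fell, which is 38.4% of the set, against a background of 33.7% of all 11051 genes tested (15.2% higher and 18.5% lower). In WT cells 8 rose and 15 fell, or 15.8% of the set, against 14.9% of all genes (8.23% higher and 6.68% lower). In both lines the share of members that fell (23.3% in KO and 10.3% in WT cells) was above the background, and the share that rose (15.1% and 5.48%) was at or below it. The larger number of calls in KO cells was shared by all genes, and was not seen in the 9-library fit. There 27 members rose and 53 fell in KO cells, or 54.8% (39.6% of all 11955 genes tested there, 19.1% higher and 20.5% lower), and 28 rose and 49 fell in WT cells, or 52.7% (40% of all genes, 20.4% higher and 19.6% lower). Without the 5 members that entered through 1 group, 20 rose and 34 fell in KO cells and 8 rose and 14 fell in WT cells in the full fit. The median log2 fold change with copper was -0.16 in KO cells and -0.26 in WT cells, beside 0.01 and -0.03 for all genes. Between the untreated lines 24 members were higher and 18 lower in KO than in WT cells, or 28.8%, against 31.9% of all genes (17.9% higher and 14% lower). Between the lines in copper 13 were higher and 17 lower, or 20.5%, against 13.8% of all genes (5.77% higher and 8.03% lower). The difference between the copper effects of the lines, that is, the effect in KO cells minus the effect in WT cells, was called for 12 members, 3 above 0 and 9 below, or 8.22%, against 4.93% of all genes (1.26% and 3.67%). In the 9-library fit 32 members were higher and 29 lower between the untreated lines, or 41.8%, against 34.6% of all genes (16.8% and 17.7%). Between the lines in copper 26 were higher and 41 lower there, or 45.9%, against 37.9% (17.3% and 20.6%). For the interaction 9 were above 0 and 10 below, or 13%, against 8.78% (3.78% and 5%). In these tests, run with edgeR's quasi-likelihood method, a gene was called at an adjusted p under 0.05 after Benjamini-Hochberg adjustment over all genes. P-values rest on the spread between the 3 libraries of a group, estimated jointly over all 4 groups. Libraries outside a contrast therefore bear on its p-values too. In the paragraphs on single genes a bracket gives the log2 fold change ± its standard error (SE), the adjusted p, and the log2 fold change in the 9-library fit. An adjusted p follows the last value where the 9-library fit changed the call.

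When each of the 12 libraries was left out in turn, 34 of the 56 copper calls in KO cells held in all 12 refits, and 9 of the 23 in WT cells. In the 9-library fit 46 of the 56 and 23 of the 23 were called in the same direction. Of the 42 calls between the untreated lines 20 held in all 12 refits and 35 in the 9-library fit. Of the 30 calls between the lines in copper 12 held in all 12 refits and 30 in the 9-library fit. The members took up a smaller part of the counts in copper. Their sum was 5963 to 6111 CPM in KO copper libraries, 6589 to 7816 CPM in KO untreated libraries, 7013 to 7128 CPM in WT copper libraries and 8967 to 8989 CPM in WT untreated libraries. Within each line the copper libraries lay below the untreated ones with no overlap. The share of counts from mitochondrial genes moved with the same groups: it was 8.34 to 9.46% in KO copper, 5.82 to 8.85% in KO untreated, 6.58 to 8.59% in WT copper and 2.97 to 3.80% in WT untreated libraries. Its part in these results was not tested.

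The copper effects of the lines come from separate libraries and can be set beside each other, but they are not independent. Their p-values share 1 estimate of the spread. Deviations of KO untreated and WT copper libraries were also partly shared, with correlations of 0.495 for replicate 1 and 0.610 for replicate 3. The part of this in the calls below was not tested. With copper, 4 members rose in both lines: SLC38A6, SLC48A1, SLC66A1 and SLC6A6. Another 9 fell in both: SLC1A2, SLC25A23, SLC25A33, SLC27A2, SLC29A3, SLC44A1, SLC47A1, SLC5A9 and SLC6A4. These are 2.74% and 6.16% of the members, beside 4.41% and 3.31% of all genes that rose or fell in both lines. SLC5A9 and SLC6A4 entered the set through the untreated groups. In the 9-library fit 19 members rose and 36 fell in both lines (13.0% and 24.7%, beside 12.2% and 11.9% of all genes). SLC16A1 and SLC16A6 rose in KO cells and fell in WT cells, and SLC5A3 fell in KO cells and rose in WT cells; opposite calls were 2.05% of the members and 0.299% of all genes. A further 40 members were called in KO cells and not in WT cells, and 7 in WT cells and not in KO cells. Beside this split, 33.7% of all genes were called in KO cells and 14.9% in WT cells, with the shares called in both given above. Of the members 38.4% and 15.8% were, so that nothing particular to the members is read from the split. It does not show that the lines differ, which is what the interaction tests.

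**Figure D1:**
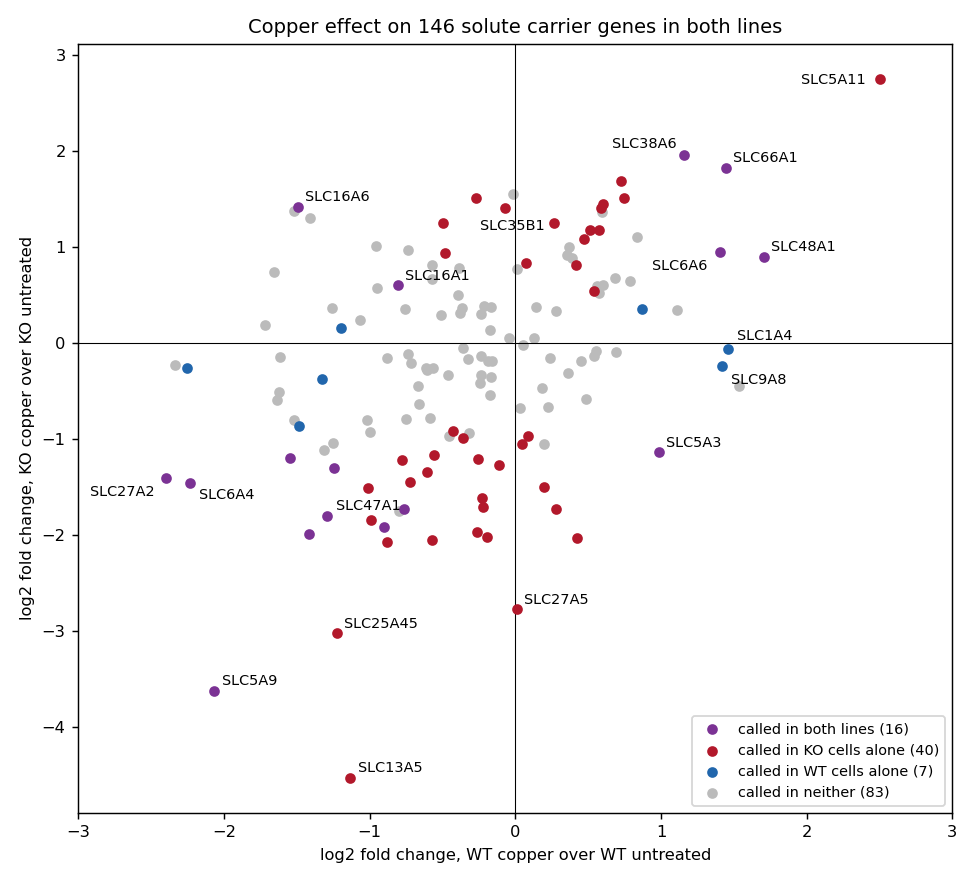
Each point is 1 of the 146 members, with the log2 fold change of WT copper over WT untreated libraries on the horizontal axis and of KO copper over KO untreated libraries on the vertical axis (3 libraries a group). Colour gives where the adjusted p was under 0.05: 16 members in both lines, 40 in KO cells alone, 7 in WT cells alone and 83 in neither. SLC13A5 is the lowest point on the vertical axis, and SLC16A6, SLC16A1 and SLC5A3 are the points called in opposite directions.

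Of the 18 amino acid carriers of the cell membrane, 4 rose and 4 fell with copper in KO cells, and 3 rose and 2 fell in WT cells. Beside this count and those of the classes below stand 15.2% of all genes higher and 18.5% lower in KO cells. In WT cells the shares are 8.23% and 6.68%. The classes are small, and no class was tested against these shares. SLC3A2 is the heavy chain that brings several amino acid exchangers to the membrane. It had 96.9, 92.5 and 101 CPM in KO copper libraries and 32.6, 47.1 and 68 CPM in KO untreated libraries. In WT cells SLC3A2 had 39, 52.3 and 59.6 CPM in WT copper libraries and 38.8, 38.7 and 33.4 CPM in WT untreated libraries. The KO copper libraries were above all others, and SLC3A2 rose with copper in KO cells (log2 fold change 1.09 ± 0.244, adjusted p = 0.0056, 9-library fit 0.68). In WT cells the change with copper was not called (log2 fold change 0.47 ± 0.242, adjusted p = 0.21, 9-library fit 0.66, adjusted p = 0.00026). SLC38A1, a sodium-coupled importer of glutamine and other neutral amino acids, had 111, 138 and 111 CPM in KO copper libraries and 109, 126 and 69.6 CPM in KO untreated libraries. In WT cells SLC38A1 had 99.8, 115 and 122 CPM in WT copper libraries and 67, 59.3 and 61.5 CPM in WT untreated libraries. It rose with copper in WT cells (log2 fold change 0.87 ± 0.235, adjusted p = 0.027, 9-library fit 0.99), where the groups did not overlap. That call ended without WT copper replicate 2 or 3 or WT untreated replicate 1, 2 or 3 (adjusted p 0.073 to 0.11). In KO cells it was not called (log2 fold change 0.36 ± 0.236, adjusted p = 0.26, 9-library fit 0.96, adjusted p = 6.8e-06), and the untreated KO libraries that stood apart lay close to the copper ones.

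SLC1A4 exchanges alanine, serine and cysteine. It had 51.3, 42.3 and 38.6 CPM in KO copper libraries and 57.5, 51.2 and 41.8 CPM in KO untreated libraries. In WT cells SLC1A4 had 66.7, 58 and 52.3 CPM in WT copper libraries and 22.9, 19.1 and 23.3 CPM in WT untreated libraries. The untreated WT libraries were the low ones: SLC1A4 rose with copper in WT cells (log2 fold change 1.46 ± 0.222, adjusted p = 0.0013, 9-library fit 1.40) and was higher in untreated KO than in untreated WT cells (log2 fold change 1.08 ± 0.225, adjusted p = 0.0048, 9-library fit 0.74), and it did not pass the test for copper in KO cells (log2 fold change -0.063 ± 0.221, adjusted p = 0.85, 9-library fit 0.26). SLC6A6, the taurine carrier, had 56.3, 58.2 and 44.6 CPM in KO copper libraries and 30.5, 45.1 and 16.5 CPM in KO untreated libraries. In WT cells SLC6A6 had 35.2, 33.6 and 29.4 CPM in WT copper libraries and 14, 11 and 12.6 CPM in WT untreated libraries. It rose with copper in both lines, in KO cells (log2 fold change 0.95 ± 0.323, adjusted p = 0.039, 9-library fit 1.86) and in WT cells (log2 fold change 1.41 ± 0.327, adjusted p = 0.014, 9-library fit 1.39). The groups overlapped in KO cells and not in WT cells. The KO call ended without KO copper replicate 1 or 2, KO untreated replicate 1 or 3, WT copper replicate 2 or WT untreated replicate 1, 2 or 3 (adjusted p 0.0522 to 0.1), and the WT call ended without WT untreated replicate 2 (adjusted p = 0.068).

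SLC38A2, another glutamine and alanine importer and the most abundant of its family here, separated the lines. It had 272, 221 and 258 CPM in KO copper libraries and 105, 104 and 218 CPM in KO untreated libraries. In WT cells SLC38A2 had 431, 693 and 739 CPM in WT copper libraries and 918, 866 and 863 CPM in WT untreated libraries. Every KO library lay below every WT library. Untreated, the difference was log2 fold change -2.76 ± 0.297, adjusted p = 0.00013, 9-library fit -2.22; in copper it was log2 fold change -1.34 ± 0.282, adjusted p = 0.0088, 9-library fit -1.60, and this call ended without KO copper replicate 2 (adjusted p = 0.0524). With copper SLC38A2 rose in KO cells (log2 fold change 0.94 ± 0.282, adjusted p = 0.023, 9-library fit 0.38), a call that ended without KO copper replicate 1 or 3 or KO untreated replicate 1 or 2 (adjusted p 0.06 to 0.087). SLC6A8, the creatine carrier, had 24.2, 25.5 and 21.5 CPM in KO copper libraries and 4.16, 7.17 and 43.9 CPM in KO untreated libraries. In WT cells SLC6A8 had 49.1, 89.8 and 80.6 CPM in WT copper libraries and 171, 195 and 168 CPM in WT untreated libraries. It was lower in untreated KO than in untreated WT cells (log2 fold change -3.28 ± 0.569, adjusted p = 0.002, 9-library fit -2.22), and without KO untreated replicate 3 the log2 fold change was -5.07. SLC7A2, which imports arginine and lysine, had 34.2, 57.4 and 35.4 CPM in KO copper libraries and 144, 126 and 60.4 CPM in KO untreated libraries. In WT cells SLC7A2 had 294, 155 and 111 CPM in WT copper libraries and 214, 178 and 227 CPM in WT untreated libraries. In copper it was lower in KO than in WT cells (log2 fold change -2.18 ± 0.416, adjusted p = 0.0053, 9-library fit -1.74). SLC38A5, a carrier of glutamine, histidine and glycine, had 12.1, 12.1 and 15.5 CPM in KO copper libraries and 50.6, 43 and 38.4 CPM in KO untreated libraries. In WT cells SLC38A5 had 29.9, 21.8 and 23.2 CPM in WT copper libraries and 24.8, 28.2 and 36.2 CPM in WT untreated libraries. It fell with copper in KO cells (log2 fold change -1.61 ± 0.245, adjusted p = 0.00061, 9-library fit -1.36). The KO copper libraries were the lowest of the 12. SLC1A5, the main glutamine exchanger of many tumour lines, had 164, 149 and 134 CPM in KO copper libraries and 27, 23.5 and 117 CPM in KO untreated libraries. In WT cells SLC1A5 had 133, 195 and 227 CPM in WT copper libraries and 118, 120.4 and 98 CPM in WT untreated libraries. With copper it rose in KO cells (log2 fold change 1.52 ± 0.454, adjusted p = 0.023, 9-library fit 0.53), where KO untreated replicates 1 and 2 were the lowest of the 12 libraries. The call ended without KO copper replicate 1 or 2 or KO untreated replicate 1 or 2 (adjusted p 0.057 to 0.076), and without KO untreated replicate 3 the value was 2.57. SLC1A2, a glutamate importer, fell in both lines, in KO cells (log2 fold change -1.20 ± 0.416, adjusted p = 0.042, 9-library fit -1.92) and in WT cells (log2 fold change -1.55 ± 0.393, adjusted p = 0.021, 9-library fit -1.35). These calls held in 3 and 6 of the 12 refits. The KO call was lost without any 1 of the KO copper and WT untreated libraries, WT copper replicates 2 and 3 or KO untreated replicate 3, and without the last the value was -0.39. The WT call was lost without any 1 of the WT libraries.

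SLC7A5, the light chain that pairs with SLC3A2 to exchange large neutral amino acids, was next to SLC38A2 in level. It had 449, 443 and 432 CPM in KO copper libraries and 70.7, 72.7 and 789 CPM in KO untreated libraries. In WT cells SLC7A5 had 244, 481 and 419 CPM in WT copper libraries and 584, 564 and 578 CPM in WT untreated libraries. KO untreated replicates 1 and 2 were the lowest of the 12 and replicate 3 the highest, and no comparison was called in the full fit; with copper in KO cells the value turned with the libraries used (log2 fold change 0.67 ± 0.678, adjusted p = 0.46, 9-library fit -0.66, adjusted p = 4.4e-06). SLC6A11, a carrier of the transmitter GABA, had 27.4, 23.4 and 25.9 CPM in KO copper libraries and 28.4, 29.7 and 49.1 CPM in KO untreated libraries. In WT cells SLC6A11 had 5.34, 7.84 and 10.8 CPM in WT copper libraries and 16.6, 22.7 and 23 CPM in WT untreated libraries. The WT copper libraries were the low ones: it fell with copper in WT cells (log2 fold change -1.32 ± 0.294, adjusted p = 0.011, 9-library fit -1.08) and was higher in KO than in WT cells in copper (log2 fold change 1.62 ± 0.296, adjusted p = 0.0042, 9-library fit 1.36). The first call ended without WT copper replicate 2 or WT untreated replicate 2 (adjusted p 0.051 to 0.0525). SLC38A3, a glutamine carrier of liver and brain, fell with copper in KO cells (log2 fold change -1.45 ± 0.398, adjusted p = 0.016, 9-library fit -1.99) and was lower in KO than in WT cells in copper (log2 fold change -1.35 ± 0.398, adjusted p = 0.042, 9-library fit -1.43), with 3.21, 5.44 and 2.79 CPM in KO copper libraries and 9.07, 11.3 and 8.13 CPM in WT copper libraries. The copper call ended without KO copper replicate 1 or 3 or KO untreated replicate 3 (adjusted p 0.067 to 0.086). The call between the lines ended without KO copper replicate 1, 2 or 3, WT copper replicate 1, 2 or 3 or WT untreated replicate 1, 2 or 3 (adjusted p 0.051 to 0.15). SLC43A2, a carrier of large neutral amino acids, was lower in untreated KO than in untreated WT cells (log2 fold change -1.57 ± 0.559, adjusted p = 0.0487, 9-library fit -0.63). That call ended without KO copper replicate 1, 2 or 3, KO untreated replicate 1 or 2, WT copper replicate 2 or 3 or WT untreated replicate 1, 2 or 3 (adjusted p 0.0548 to 0.13), and without KO untreated replicate 3 the value was -2.68.

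Promoter windows from RefSeq (build GRCh38.p14, 250 bases before to 50 bases after the start) are shown for 3 members that rose with copper, because they hold letters of stress response elements. Capitals mark the letters TGATGNAA of the amino acid response element and TGACNNNGC of the antioxidant element core, or their reverse complement; in these windows the 2 motifs do not overlap. SLC38A1 lies at chr12:46266467-46266766 on the minus strand and holds 1 match to the first. SLC3A2 lies at chr11:62881449-62881748 on the plus strand and holds 1 match to each. SLC66A1, a lysosomal carrier described next, lies at chr1:19312076-19312375 on the plus strand and holds 3 matches to the second.
SLC38A1: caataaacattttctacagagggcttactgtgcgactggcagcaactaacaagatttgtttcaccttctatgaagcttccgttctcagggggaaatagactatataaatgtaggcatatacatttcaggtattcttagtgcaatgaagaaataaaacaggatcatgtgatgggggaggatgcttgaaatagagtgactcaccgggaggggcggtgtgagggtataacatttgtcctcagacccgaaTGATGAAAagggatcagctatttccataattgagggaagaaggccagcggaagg
SLC3A2: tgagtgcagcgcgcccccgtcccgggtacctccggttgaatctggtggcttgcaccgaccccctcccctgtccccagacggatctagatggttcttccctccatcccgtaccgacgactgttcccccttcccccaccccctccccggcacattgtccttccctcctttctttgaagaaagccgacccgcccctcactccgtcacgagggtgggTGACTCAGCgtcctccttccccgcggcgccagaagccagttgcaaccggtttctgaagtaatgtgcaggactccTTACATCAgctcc
SLC66A1: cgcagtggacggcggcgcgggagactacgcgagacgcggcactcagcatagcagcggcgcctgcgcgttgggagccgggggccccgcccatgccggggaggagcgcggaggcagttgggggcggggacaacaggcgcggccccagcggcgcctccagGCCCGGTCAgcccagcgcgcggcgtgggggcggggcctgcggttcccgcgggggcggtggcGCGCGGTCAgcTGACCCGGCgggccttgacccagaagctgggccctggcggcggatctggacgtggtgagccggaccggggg
Of the 146 members 117 had a window. TGATGNAA stood in 6 of the 117 (5.13%) and in 3.67% of all 27305 windows, and TGACNNNGC in 21 of the 117 (17.9%) and in 13.6% of all. CACGTG, the E-box, stood in 16 (13.7%, against 7.43% of all), GAANNTTC of the heat shock element in 5 (4.27%, against 6.87%) and TGCNCNC, letters of the metal response element, in 81 (69.2%, against 55.2%). Of the 22 members that rose with copper in KO cells, 15 had a window, and 1 held TGATGNAA, 3 TGACNNNGC and 7 TGCNCNC; of the 34 that fell, 27 had a window, and 2, 3 and 18 held them in that order. These matches are letters in a window and not binding sites.

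Of the 10 carriers of lysosomes and vesicles, 3 rose and 3 fell with copper in KO cells, and 2 rose and none fell in WT cells. SLC66A1, which exports lysine and arginine from the lysosome, had 31.3, 29.7 and 27.9 CPM in KO copper libraries and 5.54, 2.05 and 16.2 CPM in KO untreated libraries. In WT cells SLC66A1 had 22.9, 15.3 and 22.9 CPM in WT copper libraries and 7.12, 8.36 and 7.3 CPM in WT untreated libraries. In both lines the copper libraries were above the untreated ones with no overlap, in KO cells (log2 fold change 1.83 ± 0.422, adjusted p = 0.0065, 9-library fit 1.05) and in WT cells (log2 fold change 1.44 ± 0.411, adjusted p = 0.034, 9-library fit 1.39). Without KO untreated replicate 3 the KO value was 2.87, and the WT call ended without KO copper replicate 1, 2 or 3, WT copper replicate 1, 2 or 3 or WT untreated replicate 1, 2 or 3 (adjusted p 0.056 to 0.13). SLC38A6, a member of the glutamine carrier family, had 33.8, 28.5 and 26.7 CPM in KO copper libraries and 9.01, 3.07 and 11 CPM in KO untreated libraries. In WT cells SLC38A6 had 10.7, 14.8 and 15.1 CPM in WT copper libraries and 4.48, 8.62 and 5.33 CPM in WT untreated libraries. It rose in KO cells (log2 fold change 1.96 ± 0.357, adjusted p = 0.0017, 9-library fit 1.61) and in WT cells (log2 fold change 1.16 ± 0.353, adjusted p = 0.044, 9-library fit 1.33), and again no copper library overlapped an untreated one of its line. The WT call ended without KO copper replicate 1, 2 or 3, WT copper replicate 1, 2 or 3 or WT untreated replicate 1 or 3 (adjusted p 0.059 to 0.18).

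SLC17A9, which loads nucleotides such as ATP into vesicles, had 50.6, 45.6 and 56.5 CPM in KO copper libraries and 245, 341 and 101 CPM in KO untreated libraries. In WT cells SLC17A9 had 90.2, 99.8 and 109 CPM in WT copper libraries and 182, 184 and 194 CPM in WT untreated libraries. It fell with copper in KO cells (log2 fold change -2.07 ± 0.358, adjusted p = 0.0013, 9-library fit -0.81). SLC18B1, a vesicular polyamine carrier, had 5.34, 7.54 and 7.56 CPM in KO copper libraries and 24.9, 48.1 and 16.5 CPM in KO untreated libraries. In WT cells SLC18B1 had 14.9, 18.7 and 13.2 CPM in WT copper libraries and 16.9, 20.6 and 19.7 CPM in WT untreated libraries. It also fell in KO cells (log2 fold change -1.97 ± 0.39, adjusted p = 0.0028, 9-library fit -1.10). In both genes the KO copper libraries were the lowest, and the fall was smaller against KO untreated replicate 3 alone. SLC38A10 fell in KO cells as well (log2 fold change -0.91 ± 0.183, adjusted p = 0.003, 9-library fit -0.88). SLC38A7, which exports glutamine from the lysosome, was higher in untreated KO than in untreated WT cells (log2 fold change 1.36 ± 0.295, adjusted p = 0.0058, 9-library fit 0.61). SLC36A1, a proton-coupled exporter of small amino acids, had 10.7, 11.3 and 12.7 CPM in KO copper libraries and 1.39, 1.02 and 8.24 CPM in KO untreated libraries, and 1.07, 2.18 and 3.49 CPM in WT copper libraries and 3.43, 2.61 and 2.53 CPM in WT untreated libraries. It entered the set through the KO copper libraries and is 1 of the 3 counted as higher with copper in KO cells, so that these values are a description.

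Among the 5 carboxylate carriers 2 rose and 2 fell with copper in KO cells, and 2 fell in WT cells. SLC13A5, the sodium-coupled citrate importer of the hepatocyte membrane, had 9.62, 10.5 and 12.3 CPM in KO copper libraries and 302, 408 and 91.8 CPM in KO untreated libraries. In WT cells SLC13A5 had 119.5, 70.2 and 54.2 CPM in WT copper libraries and 183, 162 and 200.2 CPM in WT untreated libraries. The KO copper libraries were below all others. This was the lowest fold change with copper among the 146 members in KO cells (log2 fold change -4.53 ± 0.529, adjusted p = 0.00012, 9-library fit -2.91), and in copper it was lower in KO than in WT cells (log2 fold change -2.94 ± 0.505, adjusted p = 0.0029, 9-library fit -2.60). In WT cells it was not called in the full fit (log2 fold change -1.13 ± 0.449, adjusted p = 0.11, 9-library fit -1.49, adjusted p = 7e-12). SLC16A3, the lactate exporter MCT4, was the most abundant of the 5, with 233, 245 and 211 CPM in KO copper libraries and 601, 442 and 433 CPM in KO untreated libraries. In WT cells SLC16A3 had 1334, 828 and 674 CPM in WT copper libraries and 1199, 1227 and 1299.7 CPM in WT untreated libraries. All KO libraries lay below all WT libraries, untreated (log2 fold change -1.45 ± 0.27, adjusted p = 0.0029, 9-library fit -1.72) and in copper (log2 fold change -2.08 ± 0.275, adjusted p = 0.00065, 9-library fit -1.79). With copper it fell in KO cells (log2 fold change -0.99 ± 0.268, adjusted p = 0.014, 9-library fit -0.74), a call that ended without KO copper replicate 3 or KO untreated replicate 1 (adjusted p 0.059 to 0.064), and it did not pass the test in WT cells (log2 fold change -0.36 ± 0.264, adjusted p = 0.38, 9-library fit -0.67, adjusted p = 3.7e-07).

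SLC16A6, the carrier MCT7, is known from zebrafish liver to export ketone bodies. It had 12.8, 14.7 and 9.95 CPM in KO copper libraries and 4.85, 5.12 and 5.19 CPM in KO untreated libraries. In WT cells SLC16A6 had 2.67, 2.61 and 3.87 CPM in WT copper libraries and 9.75, 8.1 and 8.98 CPM in WT untreated libraries. The groups did not overlap, with KO copper highest, then WT untreated, KO untreated and WT copper cells. The top groups nearly met, at 9.95 CPM in KO copper replicate 3 and 9.75 CPM in WT untreated replicate 1. Counts were low: 3 counts were worth up to 3.07 CPM in KO untreated and up to 1.60 CPM in WT copper libraries. It rose with copper in KO cells (log2 fold change 1.42 ± 0.3, adjusted p = 0.0039, 9-library fit 1.43) and fell in WT cells (log2 fold change -1.495 ± 0.306, adjusted p = 0.0075, 9-library fit -1.38). In copper it was higher in KO than in WT cells (log2 fold change 1.97 ± 0.307, adjusted p = 0.0016, 9-library fit 1.83). SLC16A1, the lactate and ketone body carrier MCT1, moved in the same directions by less. It had 174, 170.4 and 188 CPM in KO copper libraries and 125, 87 and 168 CPM in KO untreated libraries. In WT cells SLC16A1 had 124, 179.5 and 143 CPM in WT copper libraries and 272, 267 and 253 CPM in WT untreated libraries. In untreated cells it was lower in KO than in WT cells (log2 fold change -1.19 ± 0.215, adjusted p = 0.0025, 9-library fit -0.85). Its copper effects were log2 fold change 0.60 ± 0.213, adjusted p = 0.0452, 9-library fit 0.26, adjusted p = 0.12 in KO cells and log2 fold change -0.80 ± 0.212, adjusted p = 0.025, 9-library fit -0.66 in WT cells. The KO call ended without KO copper replicate 1, 2 or 3, KO untreated replicate 1 or 2, WT copper replicate 2 or 3 or WT untreated replicate 1, 2 or 3 (adjusted p 0.052 to 0.17), and the WT call ended without WT copper replicate 1 or 3 or WT untreated replicate 1, 2 or 3 (adjusted p 0.068 to 0.089). SLC13A3, a sodium-coupled importer of succinate and other dicarboxylates, was higher in untreated KO than in untreated WT cells (log2 fold change 1.27 ± 0.407, adjusted p = 0.033, 9-library fit 2.05), with 17.3, 19.5 and 60.7 CPM in KO untreated libraries and 11.9, 13.6 and 12.6 CPM in WT untreated libraries. That call ended without KO copper replicate 1, 2 or 3, KO untreated replicate 3, WT copper replicate 2 or WT untreated replicate 1, 2 or 3 (adjusted p 0.053 to 0.19), and without KO untreated replicate 3 the value was 0.48.

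**Figure D2:**
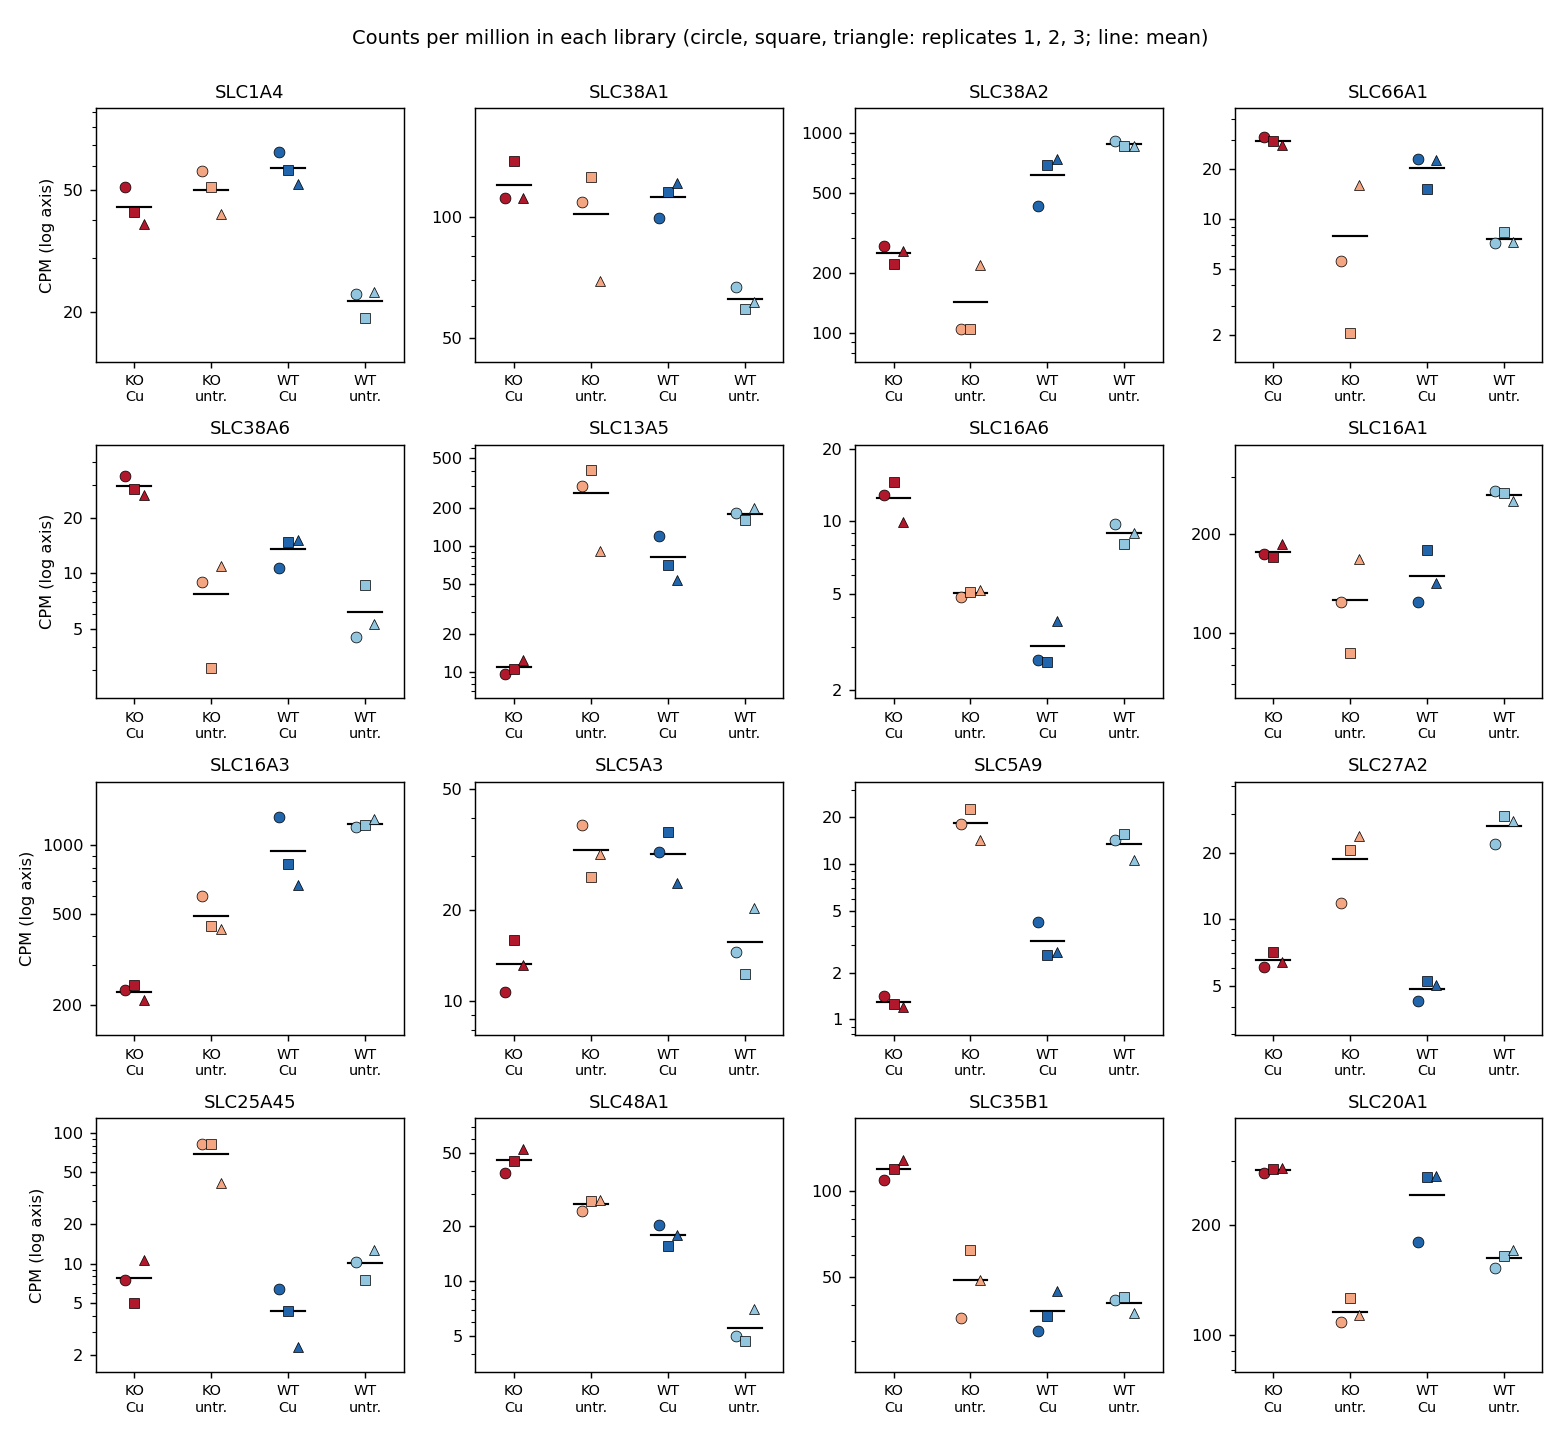
Each panel gives the CPM of 1 member on a log axis in the 12 libraries, with circles, squares and triangles for replicates 1, 2 and 3 and a line at the mean of 3 (Cu, copper; untr., untreated). SLC66A1 and SLC38A6 are higher in copper in both lines, SLC5A9 and SLC27A2 lower in both, SLC13A5 lies at 9.62 to 12.3 CPM in KO copper libraries, and SLC16A6 is highest in KO copper and lowest in WT copper cells.

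Of the 13 carriers of sugars, polyols and sugar phosphates, 2 rose and 3 fell with copper in KO cells, and 1 rose and 2 fell in WT cells. SLC5A9, a sodium-coupled carrier of mannose and related sugars, had 1.42, 1.26 and 1.19 CPM in KO copper libraries and 18, 22.5 and 14.3 CPM in KO untreated libraries. In WT cells SLC5A9 had 4.27, 2.61 and 2.71 CPM in WT copper libraries and 14.2, 15.7 and 10.7 CPM in WT untreated libraries. It fell in both lines, in KO cells (log2 fold change -3.62 ± 0.386, adjusted p = 6.2e-05, 9-library fit -3.25) and in WT cells (log2 fold change -2.07 ± 0.337, adjusted p = 0.0021, 9-library fit -2.27), with no overlap in either. The KO copper libraries held 10 counts in all. Both copper groups of SLC5A9 averaged under 5 CPM, so it entered the set through the untreated groups, and its falls are a description. SLC5A3, the myo-inositol importer that cells use against osmotic stress, had 10.7, 15.9 and 13.1 CPM in KO copper libraries and 38.1, 25.6 and 30.5 CPM in KO untreated libraries. In WT cells SLC5A3 had 31, 36.2 and 24.4 CPM in WT copper libraries and 14.5, 12.3 and 20.2 CPM in WT untreated libraries. Untreated KO cells and copper-treated WT cells were high, and copper-treated KO cells and untreated WT cells were low. It fell with copper in KO cells (log2 fold change -1.14 ± 0.272, adjusted p = 0.0078, 9-library fit -1.04) and rose in WT cells (log2 fold change 0.99 ± 0.26, adjusted p = 0.025, 9-library fit 1.01). The WT call ended without WT copper replicate 1 or 2 or WT untreated replicate 1 or 2 (adjusted p 0.064 to 0.12). The genotype difference was log2 fold change 0.89 ± 0.264, adjusted p = 0.024, 9-library fit 0.77 untreated and log2 fold change -1.24 ± 0.268, adjusted p = 0.01, 9-library fit -1.28 in copper. The untreated call ended without KO untreated replicate 1 or WT untreated replicate 1 or 2 (adjusted p 0.091 to 0.11), and the call in copper ended without KO copper replicate 1 or 3 (adjusted p 0.0508 to 0.061).

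SLC5A11, a related inositol carrier, had 22.1, 24.3 and 19.1 CPM in KO copper libraries and 0.693, 0 and 7.02 CPM in KO untreated libraries. In WT cells SLC5A11 had 0.534, 4.36 and 5.81 CPM in WT copper libraries and 0.264, 0.522 and 1.12 CPM in WT untreated libraries. It entered the set through the KO copper libraries and is 1 of the 2 counted as higher with copper in KO cells, so that these values are a description. KO untreated replicate 2 had no count, where 3 counts would be 3.07 CPM. SLC2A8, an intracellular glucose carrier, had 340.5, 312 and 308 CPM in KO copper libraries and 188, 106 and 301 CPM in KO untreated libraries. In WT cells SLC2A8 had 153, 115 and 149 CPM in WT copper libraries and 107, 110.5 and 102 CPM in WT untreated libraries. In copper it was higher in KO than in WT cells (log2 fold change 1.17 ± 0.282, adjusted p = 0.017, 9-library fit 1.19), a call that ended without KO copper replicate 1 or 2 or WT copper replicate 2 (adjusted p 0.0549 to 0.082). SLC2A8 is the other of the 2 counted as higher with copper in KO cells. KO untreated replicate 3, at 301 CPM, lay just below the KO copper libraries, and that call was not kept in the 9-library fit. SLC50A1, a sugar carrier of the Golgi apparatus, had 17.1, 23 and 19.1 CPM in KO copper libraries and 22.9, 18.4 and 33.9 CPM in KO untreated libraries. In WT cells SLC50A1 had 35.8, 34.9 and 46.1 CPM in WT copper libraries and 59.6, 62.2 and 60.4 CPM in WT untreated libraries. It was lower in KO than in WT cells untreated (log2 fold change -1.37 ± 0.229, adjusted p = 0.0016, 9-library fit -1.04) and in copper (log2 fold change -1.02 ± 0.23, adjusted p = 0.013, 9-library fit -1.13), and the second call ended without KO copper replicate 1 or 3 (adjusted p 0.066 to 0.074). SLC2A14 is nearly identical to SLC2A3, so that its reads may be shared, and it entered the set through the untreated WT libraries; its 2 calls are uncertain. SLC2A9, a urate carrier, fell with copper in KO cells in the full fit (log2 fold change -1.84 ± 0.496, adjusted p = 0.014, 9-library fit -0.58, adjusted p = 0.36), a call that ended without KO copper replicate 3 or KO untreated replicate 1 (adjusted p 0.056 to 0.062). SLC45A3 was lower in untreated KO than in untreated WT cells (log2 fold change -2.35 ± 0.724, adjusted p = 0.028, 9-library fit -1.30), with 0, 0 and 9.46 CPM in KO untreated libraries and 20.3, 20.4 and 20.5 CPM in WT untreated libraries. That call ended without KO untreated replicate 1 or 2 or WT untreated replicate 1, 2 or 3 (adjusted p 0.058 to 0.068), and without KO untreated replicate 3 the value was -8.70.

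The SLC25 family carries metabolites through the inner mitochondrial membrane. Of 29 members, 4 rose and 7 fell with copper in KO cells, and none rose and 2 fell in WT cells. SLC25A45 had 7.48, 5.02 and 10.7 CPM in KO copper libraries and 81.8, 82.9 and 41.2 CPM in KO untreated libraries. In WT cells SLC25A45 had 6.4, 4.36 and 2.32 CPM in WT copper libraries and 10.3, 7.57 and 12.6 CPM in WT untreated libraries. The untreated KO libraries stood above all others. It fell with copper in KO cells (log2 fold change -3.02 ± 0.406, adjusted p = 0.0003, 9-library fit -2.22) and was higher in untreated KO than in untreated WT cells (log2 fold change 2.63 ± 0.387, adjusted p = 0.00081, 9-library fit 1.82). SLC25A23, which exchanges ATP-magnesium for phosphate and is regulated by calcium, had 13.9, 7.12 and 13.9 CPM in KO copper libraries and 62.4, 47.1 and 42.4 CPM in KO untreated libraries. In WT cells SLC25A23 had 20.8, 19.6 and 17.4 CPM in WT copper libraries and 49.8, 55.4 and 51.9 CPM in WT untreated libraries. It fell in both lines, in KO cells (log2 fold change -1.99 ± 0.274, adjusted p = 0.00034, 9-library fit -1.67) and in WT cells (log2 fold change -1.42 ± 0.261, adjusted p = 0.0042, 9-library fit -1.44), with no overlap. SLC25A33, a pyrimidine nucleotide carrier, also fell in both, in KO cells (log2 fold change -1.30 ± 0.372, adjusted p = 0.019, 9-library fit -1.53) and in WT cells (log2 fold change -1.24 ± 0.375, adjusted p = 0.043, 9-library fit -1.23). Its KO call ended without KO copper replicate 1 or 3 (adjusted p 0.071 to 0.085), and its WT call ended without KO copper replicate 1, 2 or 3, WT copper replicate 1 or 2 or WT untreated replicate 1, 2 or 3 (adjusted p 0.0537 to 0.15).

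Among the mitochondrial carriers that fell with copper in KO cells were the oxoglutarate carrier SLC25A11 (log2 fold change -1.70 ± 0.31, adjusted p = 0.0017, 9-library fit -0.78), the dicarboxylate carrier SLC25A10 (log2 fold change -1.49 ± 0.396, adjusted p = 0.013, 9-library fit -0.94) and the citrate carrier SLC25A1 (log2 fold change -1.16 ± 0.312, adjusted p = 0.014, 9-library fit -1.02). SLC25A11 had 66.6, 62.4 and 69.7 CPM in KO copper libraries and 289.6, 277 and 129 CPM in KO untreated libraries. SLC25A10 had 33.5, 33.5 and 33.8 CPM in KO copper libraries and 132, 102 and 72.9 CPM in KO untreated libraries, and its call ended without KO untreated replicate 1 (adjusted p = 0.0509). SLC25A1 had 28.8, 36.8 and 33 CPM in KO copper libraries and 101, 62.5 and 75.1 CPM in KO untreated libraries, and its call ended without KO copper replicate 1 or 3 or KO untreated replicate 1 (adjusted p 0.0502 to 0.059). In all 3 genes no KO copper library overlapped an untreated one. SLC25A3 carries phosphate, and copper, into the matrix. It had 201, 190.5 and 193 CPM in KO copper libraries and 56.1, 48.1 and 162 CPM in KO untreated libraries. In WT cells SLC25A3 had 89.1, 136 and 160.3 CPM in WT copper libraries and 185, 181 and 185 CPM in WT untreated libraries. The rise with copper in KO cells (log2 fold change 1.25 ± 0.359, adjusted p = 0.019, 9-library fit 0.44) was smaller without the low KO untreated replicates 1 and 2. KO untreated replicate 3 also lay below the KO copper libraries. The call ended without KO copper replicate 1 or KO untreated replicate 1 or 2 (adjusted p 0.059 to 0.071). Without KO untreated replicate 3 the value was 1.92. SLC25A16 rose with copper in KO cells (log2 fold change 1.45 ± 0.34, adjusted p = 0.0071, 9-library fit 1.08), with 13.9, 12.6 and 18.3 CPM in KO copper libraries and 6.24, 2.05 and 7.93 CPM in KO untreated libraries. SLC25A39, known as an importer of glutathione, was the most abundant of the family with a mean of 163 CPM, and was not called with copper in KO cells in the full fit (log2 fold change -0.17 ± 0.225, adjusted p = 0.58, 9-library fit -0.65, adjusted p = 5.7e-05). SLC25A46, a member of the family that sits in the outer membrane, was higher in untreated KO than in untreated WT cells in the full fit (log2 fold change 1.39 ± 0.48, adjusted p = 0.043, 9-library fit 0.68, adjusted p = 0.28), a call that ended without KO copper replicate 1 or 2, KO untreated replicate 1 or 2, WT copper replicate 2 or WT untreated replicate 1, 2 or 3 (adjusted p 0.0529 to 0.2). The 18 members of the family not called in KO cells had log2 fold changes between -1.11 and 1.38.

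Of the 5 carriers of fatty acids and lipids 3 fell with copper in KO cells and 1 in WT cells. SLC27A2 is a fatty acid carrier and very long chain acyl-CoA synthetase. It had 6.05, 7.12 and 6.37 CPM in KO copper libraries and 11.8, 20.5 and 23.8 CPM in KO untreated libraries. In WT cells SLC27A2 had 4.27, 5.23 and 5.03 CPM in WT copper libraries and 21.9, 29.2 and 27.8 CPM in WT untreated libraries. It fell in KO cells (log2 fold change -1.41 ± 0.286, adjusted p = 0.0032, 9-library fit -1.69) and in WT cells (log2 fold change -2.40 ± 0.289, adjusted p = 0.00035, 9-library fit -2.29), with no overlap in either line. SLC27A5, which joins bile acids to coenzyme A, had 3.56, 9.21 and 6.77 CPM in KO copper libraries and 68.6, 58.4 and 18.3 CPM in KO untreated libraries. In WT cells SLC27A5 had 20.3, 23.1 and 13.2 CPM in WT copper libraries and 20.6, 18.3 and 18 CPM in WT untreated libraries. It fell in KO cells (log2 fold change -2.77 ± 0.497, adjusted p = 0.0016, 9-library fit -1.34), where the untreated libraries that stood apart were the high ones. In WT cells the groups overlapped (log2 fold change 0.01 ± 0.45, adjusted p = 0.99, 9-library fit -0.019). SLC27A3 fell in KO cells (log2 fold change -1.21 ± 0.367, adjusted p = 0.024, 9-library fit -1.17), a call that ended without KO copper replicate 1 or 3 or KO untreated replicate 1 (adjusted p 0.076 to 0.11). SLC27A4, the most abundant of the class with a mean of 34.3 CPM, was not called with copper in KO cells (log2 fold change -0.13 ± 0.335, adjusted p = 0.78, 9-library fit 0.49) or in WT cells (log2 fold change 0.54 ± 0.331, adjusted p = 0.3, 9-library fit 0.13).

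Of the 9 carriers of bile acids, organic anions and organic cations, 2 fell with copper in each line and none rose. SLC47A1, which exports organic cations and drugs such as metformin into bile and urine, had 7.84, 8.37 and 10.4 CPM in KO copper libraries and 36, 26.6 and 36.9 CPM in KO untreated libraries. In WT cells SLC47A1 had 20.3, 16.1 and 17 CPM in WT copper libraries and 41.9, 40.5 and 51.1 CPM in WT untreated libraries. It fell in KO cells (log2 fold change -1.80 ± 0.227, adjusted p = 0.00019, 9-library fit -1.88) and in WT cells (log2 fold change -1.29 ± 0.21, adjusted p = 0.002, 9-library fit -1.36). The serotonin carrier SLC6A4 had 2.49, 2.09 and 4.38 CPM in KO copper libraries and 4.85, 8.19 and 12.8 CPM in KO untreated libraries. In WT cells SLC6A4 had 1.07, 1.31 and 3.49 CPM in WT copper libraries and 8.44, 11.2 and 10.1 CPM in WT untreated libraries. It fell in KO cells (log2 fold change -1.45 ± 0.464, adjusted p = 0.03, 9-library fit -1.91) and in WT cells (log2 fold change -2.23 ± 0.474, adjusted p = 0.009, 9-library fit -1.94). Its KO call ended without KO copper replicate 1 or 2 or KO untreated replicate 3 (adjusted p 0.11 to 0.12). Without WT copper replicate 3 the WT value was -2.99. Both copper groups of SLC6A4 averaged under 5 CPM, so it entered the set through the untreated groups, and its falls are a description. SLC51A, a subunit of the basolateral bile acid exporter, had 2.14, 1.67 and 0 CPM in KO copper libraries and 4.16, 8.19 and 3.66 CPM in KO untreated libraries. In WT cells SLC51A had 5.87, 10.9 and 12.8 CPM in WT copper libraries and 19, 15.7 and 18.2 CPM in WT untreated libraries. It was lower in KO than in WT cells untreated (log2 fold change -1.97 ± 0.508, adjusted p = 0.013, 9-library fit -2.45) and in copper (log2 fold change -2.93 ± 0.599, adjusted p = 0.0076, 9-library fit -3.24), and no KO library reached a WT library of the same treatment. KO copper replicate 3 had no count, where 3 counts would be 1.19 CPM. Without KO copper replicate 1 the value in copper was -3.57. SLC22A18 was higher in untreated KO than in untreated WT cells in the full fit (log2 fold change 2.05 ± 0.503, adjusted p = 0.01, 9-library fit 0.61, adjusted p = 0.16), with 29.1, 71.7 and 14.3 CPM in KO untreated libraries and 6.06, 7.57 and 10.9 CPM in WT untreated libraries, and without KO untreated replicate 2 the value was 1.25. SLC22A23, the most abundant of the class with a mean of 35.3 CPM, did not pass the test with copper in KO cells (log2 fold change -0.45 ± 0.261, adjusted p = 0.2, 9-library fit -0.64, adjusted p = 0.0079) or in WT cells (log2 fold change -0.67 ± 0.258, adjusted p = 0.1, 9-library fit -0.59, adjusted p = 0.006). The hepatocyte marker sum given above was also lower in the copper libraries than in the untreated ones of each line, and its part in these results was not tested.

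Of the 12 carriers of vitamins, nucleosides, nucleobases, choline and haem, 1 rose and 5 fell with copper in KO cells, and 1 rose and 2 fell in WT cells. SLC48A1, which releases haem from lysosomes, had 39.2, 45.2 and 53 CPM in KO copper libraries and 24.2, 27.6 and 27.8 CPM in KO untreated libraries. In WT cells SLC48A1 had 20.3, 15.7 and 17.8 CPM in WT copper libraries and 5.01, 4.7 and 7.02 CPM in WT untreated libraries. The groups formed 4 levels without overlap, highest in KO copper, then KO untreated, WT copper and WT untreated cells. It rose with copper in KO cells (log2 fold change 0.90 ± 0.217, adjusted p = 0.0081, 9-library fit 0.89) and in WT cells (log2 fold change 1.71 ± 0.239, adjusted p = 0.00083, 9-library fit 1.65). It was higher in KO than in WT cells untreated (log2 fold change 2.12 ± 0.24, adjusted p = 0.00019, 9-library fit 2.11) and in copper (log2 fold change 1.31 ± 0.219, adjusted p = 0.0024, 9-library fit 1.36). Each of these 4 calls held in all 12 refits. The interaction was not called (difference of the log2 effects -0.80 ± 0.321, adjusted p = 0.12, 9-library fit -0.76). SLC23A2, an ascorbate importer, had 43.8, 36.8 and 42.2 CPM in KO copper libraries and 76.9, 47.1 and 53.7 CPM in KO untreated libraries. In WT cells SLC23A2 had 14.9, 15.7 and 10.8 CPM in WT copper libraries and 21.6, 13.8 and 14.3 CPM in WT untreated libraries. It was also higher in KO than in WT cells, untreated (log2 fold change 1.71 ± 0.264, adjusted p = 0.0011, 9-library fit 1.49) and in copper (log2 fold change 1.54 ± 0.272, adjusted p = 0.0035, 9-library fit 1.55).

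The lysosomal nucleoside exporter SLC29A3 fell with copper in KO cells (log2 fold change -1.92 ± 0.204, adjusted p = 6.2e-05, 9-library fit -1.83) and in WT cells (log2 fold change -0.90 ± 0.194, adjusted p = 0.0096, 9-library fit -0.88). It had 15, 15.5 and 15.9 CPM in KO copper libraries and 69.3, 58.4 and 62.3 CPM in KO untreated libraries. In WT cells SLC29A3 had 28.8, 24 and 31.4 CPM in WT copper libraries and 45.9, 54.6 and 60.1 CPM in WT untreated libraries. No copper library overlapped an untreated one of its line. The WT call ended without WT copper replicate 2 or WT untreated replicate 3 (adjusted p 0.0512 to 0.063). The choline carrier SLC44A1 had 36.7, 39.4 and 40.2 CPM in KO copper libraries and 144, 177 and 94.9 CPM in KO untreated libraries. In WT cells SLC44A1 had 64.6, 63.2 and 63.9 CPM in WT copper libraries and 115, 118 and 98.8 CPM in WT untreated libraries. It fell in KO cells (log2 fold change -1.73 ± 0.241, adjusted p = 0.00037, 9-library fit -1.12) and in WT cells (log2 fold change -0.77 ± 0.233, adjusted p = 0.044, 9-library fit -0.74), and the WT call ended without KO copper replicate 1, 2 or 3, WT copper replicate 1, 2 or 3 or WT untreated replicate 1, 2 or 3 (adjusted p 0.064 to 0.14). The reduced folate carrier SLC19A1 (log2 fold change -1.21 ± 0.25, adjusted p = 0.0034, 9-library fit -0.74) and the proton-coupled folate importer SLC46A1 (log2 fold change -1.51 ± 0.384, adjusted p = 0.01, 9-library fit -1.79) fell with copper in KO cells. SLC29A4, a carrier of monoamines, had 3.56, 2.93 and 1.99 CPM in KO copper libraries and 10.4, 9.22 and 17.1 CPM in KO untreated libraries. In WT cells SLC29A4 had 15.5, 9.59 and 9.3 CPM in WT copper libraries and 13.7, 11.2 and 14.9 CPM in WT untreated libraries. It was lower in KO copper libraries than in either set beside them, against untreated KO (log2 fold change -2.01 ± 0.372, adjusted p = 0.0019, 9-library fit -2.39) and against WT copper libraries (log2 fold change -2.01 ± 0.37, adjusted p = 0.0044, 9-library fit -1.80). SLC5A6, which imports biotin and pantothenate, was lower in untreated KO than in untreated WT cells (log2 fold change -1.76 ± 0.597, adjusted p = 0.041, 9-library fit -0.56), with 11.8, 11.3 and 109.9 CPM in KO untreated libraries and 143, 127 and 154 CPM in WT untreated libraries. That call ended without KO copper replicate 1, 2 or 3, KO untreated replicate 1 or 2, WT copper replicate 2 or 3 or WT untreated replicate 1, 2 or 3 (adjusted p 0.0531 to 0.1), and without KO untreated replicate 3 the value was -3.65.

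Of the 20 carriers of inorganic ions, 3 rose and 2 fell with copper in KO cells, and 1 rose and none fell in WT cells. SLC20A1, a sodium-coupled phosphate importer, had 278, 284 and 287 CPM in KO copper libraries and 108, 126 and 113 CPM in KO untreated libraries. In WT cells SLC20A1 had 179.9, 271 and 273 CPM in WT copper libraries and 153, 165 and 171 CPM in WT untreated libraries. It rose in KO cells with no overlap of the groups (log2 fold change 1.41 ± 0.192, adjusted p = 0.00032, 9-library fit 1.5), and in WT cells it was not called in the full fit (log2 fold change 0.59 ± 0.187, adjusted p = 0.052, 9-library fit 0.80, adjusted p = 9.9e-09). SLC4A7, a sodium bicarbonate importer, had 93.3, 111 and 106 CPM in KO copper libraries and 61, 34.8 and 51.6 CPM in KO untreated libraries. In WT cells SLC4A7 had 157, 180.4 and 156 CPM in WT copper libraries and 117, 115 and 119.9 CPM in WT untreated libraries. It rose with copper in KO cells (log2 fold change 1.18 ± 0.2, adjusted p = 0.0011, 9-library fit 1.18), and was lower in KO than in WT cells untreated (log2 fold change -1.37 ± 0.2, adjusted p = 0.00073, 9-library fit -1.38) and in copper (log2 fold change -0.70 ± 0.193, adjusted p = 0.032, 9-library fit -0.79). The last call ended without KO copper replicate 1, 2 or 3, WT copper replicate 1, 2 or 3 or WT untreated replicate 1 or 2 (adjusted p 0.0553 to 0.13). SLC26A11, a sulfate carrier, rose with copper in KO cells (log2 fold change 1.69 ± 0.384, adjusted p = 0.0059, 9-library fit 1.57), with 24.6, 26.8 and 23.5 CPM in KO copper libraries and 5.54, 10.2 and 9.46 CPM in KO untreated libraries.

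A trio of related anion carriers was called between the untreated lines. The sulfate carrier SLC26A2 had 19.6, 21.8 and 17.5 CPM in KO copper libraries and 109, 99.3 and 56.5 CPM in KO untreated libraries. In WT cells SLC26A2 had 12.3, 13.9 and 13.6 CPM in WT copper libraries and 18.2, 20.6 and 21.6 CPM in WT untreated libraries. The untreated KO libraries were the high ones, above untreated WT libraries (log2 fold change 2.01 ± 0.266, adjusted p = 0.00047, 9-library fit 1.28), and with copper SLC26A2 fell in KO cells (log2 fold change -2.05 ± 0.27, adjusted p = 0.00026, 9-library fit -1.35). SLC26A6, which exchanges chloride for oxalate and bicarbonate, had 80.1, 86.7 and 79.2 CPM in KO copper libraries and 125, 115 and 94.9 CPM in KO untreated libraries. In WT cells SLC26A6 had 212, 177 and 120.5 CPM in WT copper libraries and 195, 201 and 215 CPM in WT untreated libraries. It was lower in KO than in WT cells untreated (log2 fold change -0.99 ± 0.223, adjusted p = 0.0068, 9-library fit -1.30) and in copper (log2 fold change -1.08 ± 0.223, adjusted p = 0.0079, 9-library fit -0.94). SLC26A1, a sulfate and oxalate exchanger, had 6.05, 11.7 and 6.77 CPM in KO copper libraries and 8.31, 4.1 and 15 CPM in KO untreated libraries. In WT cells SLC26A1 had 0.534, 1.74 and 0.387 CPM in WT copper libraries and 3.16, 2.61 and 2.81 CPM in WT untreated libraries. In WT copper replicates 1 and 3 SLC26A1 lay under 3 counts, which would be 1.60 and 1.16 CPM there. The size of its fold change in copper is therefore uncertain. Both WT groups averaged under 5 CPM, so SLC26A1 entered the set through the KO groups, and its differences between the lines are a description. SLC26A1 was higher in KO than in WT cells untreated (log2 fold change 1.63 ± 0.466, adjusted p = 0.02, 9-library fit 2.17) and in copper (log2 fold change 3.10 ± 0.598, adjusted p = 0.0056, 9-library fit 2.85). The untreated call ended without KO untreated replicate 3 or WT untreated replicate 1, 2 or 3 (adjusted p 0.063 to 0.085), and without WT copper replicate 2 the value in copper was 3.996. SLC9A8, a sodium-proton exchanger of the Golgi apparatus, rose with copper in WT cells (log2 fold change 1.42 ± 0.285, adjusted p = 0.0067, 9-library fit 1.56) and was higher in untreated KO than in untreated WT cells (log2 fold change 1.18 ± 0.295, adjusted p = 0.011, 9-library fit 1.10). It had 8.19, 9.63 and 8.76 CPM in KO copper libraries and 12.5, 10.2 and 11.3 CPM in KO untreated libraries. In WT cells SLC9A8 had 10.1, 14.4 and 11.6 CPM in WT copper libraries and 6.06, 4.18 and 3.37 CPM in WT untreated libraries. The untreated WT libraries were lowest. SLC9B2, a related exchanger, fell with copper in KO cells in the full fit (log2 fold change -2.02 ± 0.421, adjusted p = 0.0036, 9-library fit -0.66, adjusted p = 0.067), and was not called in the 9-library fit. SLC24A1, which exchanges sodium for calcium and potassium, was lower in KO than in WT cells in copper (log2 fold change -0.70 ± 0.217, adjusted p = 0.0491, 9-library fit -0.64), a call that ended without KO copper replicate 1, 2 or 3, WT copper replicate 1, 2 or 3 or WT untreated replicate 1, 2 or 3 (adjusted p 0.0549 to 0.16).

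Of the 18 carriers of nucleotide sugars, acetyl-CoA and related substrates of Golgi and ER, 1 rose and 2 fell with copper in KO cells, and none rose and 2 fell in WT cells. SLC35B1, which exchanges ATP and ADP across the ER membrane, had 109.7, 120.2 and 129 CPM in KO copper libraries and 36, 62.5 and 48.8 CPM in KO untreated libraries. In WT cells SLC35B1 had 32.6, 36.6 and 44.9 CPM in WT copper libraries and 41.7, 42.6 and 37.6 CPM in WT untreated libraries. The KO copper libraries stood above all others, against untreated KO (log2 fold change 1.41 ± 0.223, adjusted p = 0.00078, 9-library fit 1.47) and against WT copper libraries (log2 fold change 1.62 ± 0.223, adjusted p = 0.00082, 9-library fit 1.46). In WT cells the change with copper was log2 fold change -0.067 ± 0.221, adjusted p = 0.87, 9-library fit 0.07. SLC35B4, a carrier of UDP-xylose and UDP-N-acetylglucosamine, had 28.5, 24.7 and 29.9 CPM in KO copper libraries and 134, 82.9 and 79.9 CPM in KO untreated libraries. In WT cells SLC35B4 had 35.2, 30.1 and 23.2 CPM in WT copper libraries and 25.3, 24.3 and 24.4 CPM in WT untreated libraries. The untreated KO libraries were the high ones, against untreated WT (log2 fold change 1.88 ± 0.252, adjusted p = 0.00048, 9-library fit 1.49), and fell with copper (log2 fold change -1.73 ± 0.253, adjusted p = 0.00048, 9-library fit -1.35). SLC35E3, whose substrate is not established, was also higher in untreated KO than in untreated WT cells (log2 fold change 1.14 ± 0.222, adjusted p = 0.0035, 9-library fit 0.70), with 174, 144 and 112 CPM in KO untreated libraries and 59.8, 61.4 and 59 CPM in WT untreated libraries. SLC35D1 fell with copper in WT cells (log2 fold change -1.49 ± 0.357, adjusted p = 0.016, 9-library fit -1.10), a call that ended without WT untreated replicate 2 or 3 (adjusted p 0.0523 to 0.07). The acetyl-CoA carrier SLC33A1 was lower in KO than in WT cells in copper (log2 fold change -0.93 ± 0.246, adjusted p = 0.027, 9-library fit -0.85), a call that ended without KO copper replicate 1, 2 or 3 or WT copper replicate 1 (adjusted p 0.059 to 0.11). SLC35E1, the most abundant of the class, had 73.4, 107 and 93.6 CPM in KO copper libraries and 250.1, 246 and 112 CPM in KO untreated libraries. In WT cells SLC35E1 had 240.2, 146 and 153 CPM in WT copper libraries and 184, 188 and 162 CPM in WT untreated libraries. It fell with copper in KO cells in the full fit alone (log2 fold change -1.05 ± 0.325, adjusted p = 0.027, 9-library fit -0.12, adjusted p = 0.57), and that call ended without KO copper replicate 1 or 3 or KO untreated replicate 1 or 2 (adjusted p 0.077 to 0.1). SLC35D2 fell with copper in WT cells (log2 fold change -1.20 ± 0.355, adjusted p = 0.04, 9-library fit -0.88), a call that ended without KO copper replicate 1, 2 or 3, WT copper replicate 1 or 2 or WT untreated replicate 1, 2 or 3 (adjusted p 0.06 to 0.13). SLC35F2 was higher in untreated KO than in untreated WT cells in the full fit (log2 fold change 1.31 ± 0.324, adjusted p = 0.011, 9-library fit 0.56, adjusted p = 0.14), and SLC35C2 was lower (log2 fold change -1.10 ± 0.274, adjusted p = 0.011, 9-library fit -0.53).

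A further 5 symbols of the set name genes that are not carriers themselves: SLC7A6OS, SLC4A1AP, SLC2A4RG, SLC16A1-AS1 and SLC12A2-DT. SLC7A6OS lies on the opposite strand to SLC7A6 and SLC16A1-AS1 opposite to SLC16A1, and the sources used here do not give the strand setting of the counting. SLC7A6OS had 53.1, 70.8 and 62.1 CPM in KO copper libraries and 21.5, 17.4 and 47.6 CPM in KO untreated libraries. In WT cells SLC7A6OS had 57.6, 58.8 and 54.6 CPM in WT copper libraries and 35.1, 40.7 and 41 CPM in WT untreated libraries. It rose with copper in KO cells (log2 fold change 1.18 ± 0.288, adjusted p = 0.0085, 9-library fit 0.55). SLC4A1AP rose too (log2 fold change 0.55 ± 0.179, adjusted p = 0.034, 9-library fit 0.69), a call that ended without KO copper replicate 1 or 2, KO untreated replicate 1 or 3 or WT untreated replicate 1 or 3 (adjusted p 0.0504 to 0.1). Of the 2 members put under other or uncertain substrates, SLC66A2 fell with copper in KO cells (log2 fold change -1.34 ± 0.231, adjusted p = 0.0013, 9-library fit -0.75), with 92.6, 76.2 and 83.2 CPM in KO copper libraries and 286, 241 and 160.2 CPM in KO untreated libraries.

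**Figure D3:**
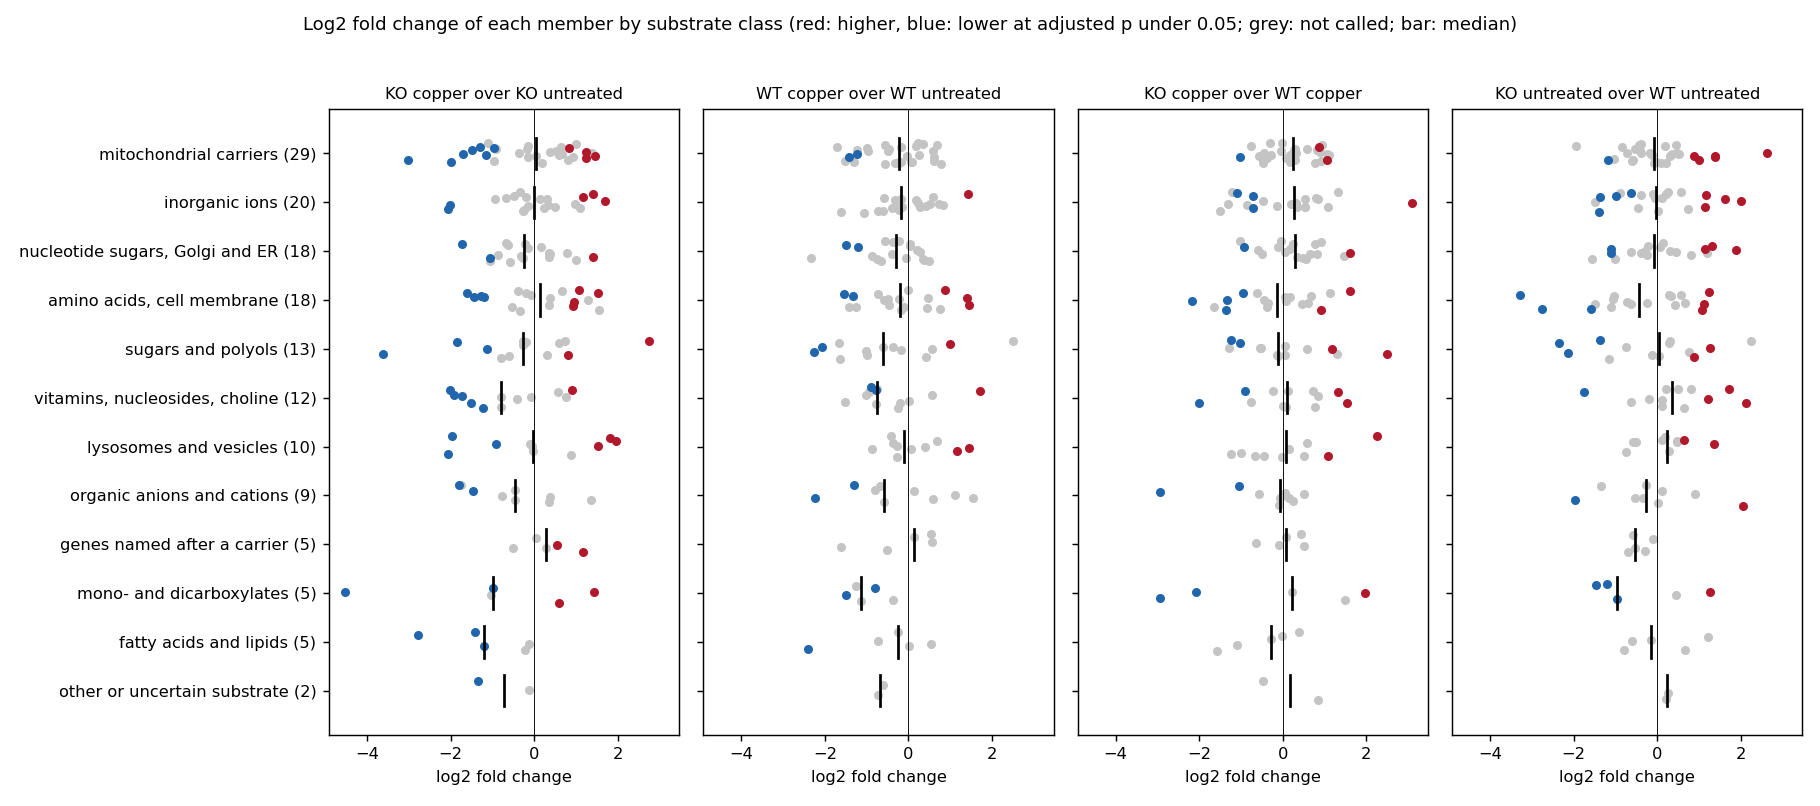
Each point is the log2 fold change of 1 member in 1 of 4 comparisons, arranged by substrate class with the number of members in brackets; red and blue mark members higher and lower at an adjusted p under 0.05, grey those not called, and black bars the class medians. With copper in KO cells the medians of carboxylates (-0.99), fatty acids (-1.21) and vitamins, nucleosides and choline (-0.79) lie to the left of 0. Single carboxylate and vitamin carriers lie to the right, up to 1.42 and 0.90. The medians of the mitochondrial (0.05) and ion (-0.0020) carriers lie near 0, with members to both sides.

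By class, the medians with copper in KO cells ran between -1.21 for the 5 carriers of fatty acids and lipids and 0.29 for the 5 genes named after a carrier. In WT cells they ran between -1.13 for the 5 carboxylate carriers and 0.13 for the genes named after a carrier. The carboxylate carriers summed to 436 to 456 CPM in KO copper, 759 to 1050 CPM in KO untreated, 882 to 1583 CPM in WT copper and 1676 to 1774 CPM in WT untreated libraries, and SLC16A3 was the largest part of it. The amino acid carriers of the cell membrane summed to 1498 to 1607 CPM in KO copper, 893 to 1935 CPM in KO untreated, 1725 to 2195 CPM in WT copper and 2478 to 2601 CPM in WT untreated libraries. Both classes were highest in untreated WT cells. The carriers of vitamins, nucleosides and choline summed to 313 to 338 CPM in KO copper and 473 to 581 CPM in KO untreated libraries, and to 297 to 321 CPM in WT copper and 463 to 491 CPM in WT untreated libraries. Here the copper libraries lay below the untreated ones in both lines with no overlap. The same held for carboxylates, mitochondrial carriers, lysosomes and vesicles, organic anions and cations, nucleotide sugars, and other or uncertain substrates. It did not hold for amino acids of the cell membrane, fatty acids, inorganic ions, sugars or the genes named after a carrier.

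The test of the interaction called 12 members; the brackets give the difference of the log2 effects ± SE, its adjusted p and the difference in the 9-library fit. The copper effect in KO cells was above that in WT cells for SLC16A6 (2.92 ± 0.429, adjusted p = 0.011, 9-library fit 2.81), SLC35B1 (1.48 ± 0.313, adjusted p = 0.034, 9-library fit 1.40) and SLC16A1 (1.41 ± 0.301, adjusted p = 0.034, 9-library fit 0.91). It was below that in WT cells for SLC13A5 (-3.40 ± 0.668, adjusted p = 0.031, 9-library fit -1.42), SLC27A5 (-2.78 ± 0.669, adjusted p = 0.042, 9-library fit -1.32), SLC9B2 (-2.45 ± 0.575, adjusted p = 0.04, 9-library fit -0.99, adjusted p = 0.075), SLC5A3 (-2.12 ± 0.376, adjusted p = 0.023, 9-library fit -2.04), SLC35B4 (-2.01 ± 0.356, adjusted p = 0.023, 9-library fit -1.51), SLC9A8 (-1.66 ± 0.405, adjusted p = 0.043, 9-library fit -1.73), SLC1A4 (-1.53 ± 0.312, adjusted p = 0.034, 9-library fit -1.14), SLC26A2 (-1.48 ± 0.385, adjusted p = 0.0487, 9-library fit -0.86, adjusted p = 0.076) and SLC38A5 (-1.39 ± 0.336, adjusted p = 0.042, 9-library fit -1.02). None of the 12 held in all 12 refits. SLC16A6 held in 10, and ended without WT untreated replicate 1 or KO copper replicate 1 (adjusted p 0.051 to 0.059). Without either of those libraries no member at all was called. The other 11 held in 1 to 4 refits. Without WT untreated replicate 2, WT copper replicate 1 or 2, or KO copper replicate 2 or 3, 1 of the 12 was called, without WT untreated replicate 3 or KO untreated replicate 1, 2 were, and without KO untreated replicate 2, 4 were. Without WT copper replicate 3 there were 11 calls, 10 of them among the 12. Without KO untreated replicate 3 there were 79, which include the 12. The 9-library fit called 10 of the 12, and not SLC9B2 and SLC26A2.

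**Figure D4:**
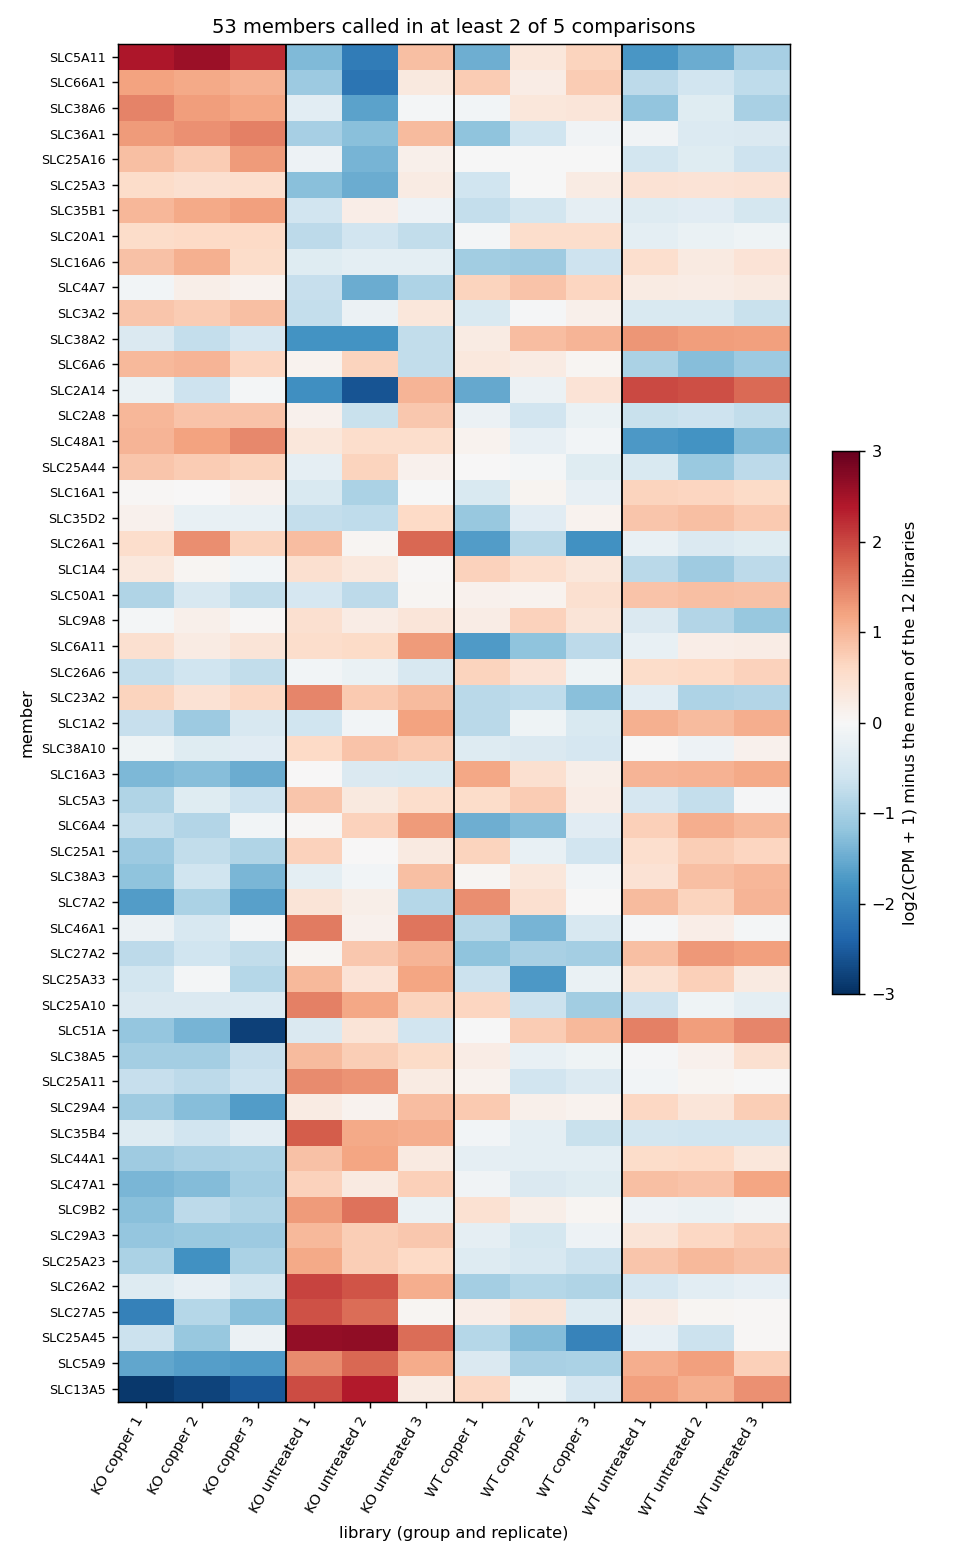
Rows are the 53 members called in at least 2 of the 5 comparisons and columns the 12 libraries by group; colour gives log2(CPM + 1) minus the row's mean over the 12 libraries, cut at 3 units either way. Rows are ordered by the mean of KO copper minus that of KO untreated libraries; SLC26A2 is higher and SLC38A2 lower in KO untreated replicates 1 and 2 than in replicate 3.

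The comparisons of KO with WT cells in each treatment use separate libraries, but share them with the copper comparisons. The partly shared deviations of KO untreated and WT copper libraries enter here too, and their part was not tested. In both treatments 4 members were higher in KO cells (SLC23A2, SLC25A44, SLC26A1 and SLC48A1) and 6 were lower (SLC16A3, SLC26A6, SLC38A2, SLC4A7, SLC50A1 and SLC51A). These are 2.74% and 4.11% of the members, beside 2.43% and 3.76% of all genes. SLC26A1 entered the set through the KO groups. SLC5A3 was higher in untreated KO cells and lower in copper-treated KO cells, and SLC16A6 the reverse. Opposite calls were 1.37% of the members and 0.29% of all genes. Another 30 were called in untreated cells alone and 18 in copper alone. Beside this split, 31.9% of all genes were called in untreated cells and 13.8% in copper, and 28.8% and 20.5% of the members. Nothing particular to the members is read from it. Among the 146 members, 61 were called in none of the 5 comparisons. This last count was not made over all genes.

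Genes that work beside the carriers were counted from lists fixed with earlier results known. The shares of all genes to set beside these counts are 15.2% higher and 18.5% lower with copper in KO cells, and 8.23% and 6.68% in WT cells; in the 9-library fit they are 19.1% and 20.5%, and 20.4% and 19.6%. Of 20 tested genes of the amino acid deprivation response, 8 rose and 1 fell with copper in KO cells, and 10 rose and none fell in WT cells. In the 9-library fit 10 rose and 2 fell in KO cells, and 18 rose and none fell in WT cells. Among them were asparagine synthetase ASNS (log2 fold change 2.77 ± 0.342, adjusted p = 0.00017, 9-library fit 2.11 in KO and 1.40 ± 0.32, adjusted p = 0.013, 9-library fit 1.66 in WT cells) and the leucine sensor SESN2 (2.14 ± 0.178, adjusted p = 1e-05, 9-library fit 1.995 and 2.24 ± 0.178, adjusted p = 1.7e-05, 9-library fit 2.35). The transcription factor ATF4, named for its role after its values were seen, was called in WT cells (0.67 ± 0.185, adjusted p = 0.029, 9-library fit 0.62) and not in KO cells (0.34 ± 0.185, adjusted p = 0.16, 9-library fit 0.46, adjusted p = 0.0011). Between the lines, 3 of the 20 were higher and 8 lower in untreated KO cells, and none was higher and 8 were lower in copper, beside 17.9% and 14% of all genes untreated and 5.77% and 8.03% in copper. Of 10 tested accessory subunits and scaffold proteins of carriers, 5 fell with copper in KO cells and 3 in WT cells, and none rose (9-library fit 5 and 5, with 1 higher in KO cells); the scaffold NHERF1 fell in both (-1.49 ± 0.19, adjusted p = 0.00021, 9-library fit -1.55 in KO and -0.78 ± 0.186, adjusted p = 0.015, 9-library fit -0.89 in WT cells). Of 12 inner membrane carriers with other symbols 2 rose and 2 fell in KO cells, among them the pyruvate carrier subunit MPC1 (-2.06 ± 0.36, adjusted p = 0.0013, 9-library fit -0.97) and the calcium uniporter MCU (2.02 ± 0.495, adjusted p = 0.0088, 9-library fit 1.24), and 1 rose and 1 fell in WT cells (9-library fit 2 and 5 in KO cells, 2 and 4 in WT cells). Of 14 tested ABC transporters and SLCO carriers of liver, 1 rose and 6 fell in KO cells and 1 rose and 2 fell in WT cells (9-library fit 2 and 6 in KO cells, 3 and 5 in WT cells); the phospholipid exporter ABCB4 fell in KO cells (-3.26 ± 0.452, adjusted p = 0.00036, 9-library fit -1.73).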

How the data were processed

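Gene expression was measured in HepG2 cells by 3′ mRNA sequencing (QuantSeq, 100 ng of total RNA, single reads of 75 bp), which makes about 1 fragment per transcript, so levels were compared without a correction for length. Per the submitters' processing notes, reads were processed with STAR 2.3.0 and HTSeq on hg19. The sources used here do not give the annotation release or the strand setting. The authors deposited whole-number counts per gene, 1 column a library, and did not normalize them. There are no molecular identifiers, so limits from counts cover counting error only.

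From the counts, CPM was computed per library, and gene IDs were named from the RefSeq tables and the GENCODE annotation, which covered 99.5% of all counts. Genes were filtered with filterByExpr, which left 11051, scaled by TMM and tested with edgeR 4.0.16 in R 4.3.3 by a quasi-likelihood fit (robust) of the 4 groups over all 12 libraries (biological coefficient of variation 29.1%). Adjusted p stands for the Benjamini-Hochberg value over all genes tested. SE is the standard error of a log2 value. Alternatives were DESeq2 1.42.0, limma voom 3.58.1, no filter, relative log expression factors, a replicate block, and leaving out each library, and, added after seeing the data, leaving out the 3 that stood apart. The fit was tested on simulated data. No pair of libraries agreed within sampling noise.

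Substrate classes were assigned by symbol. For each class and comparison the text names up to 4 called members of smallest adjusted p and, per class, the most abundant one, over all members the largest called changes, and a few more of related function. The result of 1 member is not reported here. Members, classes and lists were chosen with earlier results of these data known. Promoter sequences are RefSeq's on GRCh38.p14 and were used for letters only.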

Additional observations from a re-analysis of the deposited data

Results flagged for a closer look

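Each result below is a member whose copper effect differed between the lines by the test of that difference (the log2 effect in KO cells minus that in WT cells, with 3 libraries a group). The difference was above 0 for SLC16A6 (2.92), SLC35B1 (1.48) and SLC16A1 (1.41). It was below 0 for SLC13A5 (-3.40), SLC27A5 (-2.78), SLC9B2 (-2.45), SLC5A3 (-2.12), SLC35B4 (-2.01), SLC9A8 (-1.66), SLC1A4 (-1.53), SLC26A2 (-1.48) and SLC38A5 (-1.39). None of these differences was called in all 12 refits that left out 1 library. For SLC16A6, SLC16A1 and SLC5A3 the effects of the lines were each called in the full fit and opposite in sign. The KO call of SLC16A1 ended in most refits. For SLC9B2 and SLC26A2 the difference was smaller in the 9-library fit and was no longer called. It was also smaller in size there for all the others except SLC9A8. In the 9-library fit the values of SLC16A6, SLC5A3 and SLC9A8 were 2.81, -2.04 and -1.73, and those of SLC13A5 and SLC27A5 were -1.42 and -1.32.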

How the results depend on the processing

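Of the 163 calls of members over the 5 comparisons, 161 were kept with DESeq2, 158 with relative log expression factors, 149 with limma voom, 146 without the filter on low counts and 144 without the 3 libraries that stood apart. Relative log expression factors moved the median of all genes by at most 0.07 on the log2 scale. In the 9-library fit SLC9B2 turned to -0.25 between the untreated lines. With copper in WT cells the members higher were 14 with DESeq2, the members lower 29 without the filter, and the 9-library fit called 28 higher, 49 lower and 4784 genes in all. It called 53 members lower with copper in KO cells and 29 lower between the untreated lines. Between the lines in copper it called 26 members higher, 41 lower and 4527 genes, and DESeq2 called 26 members lower. For the interaction, members above and below 0 were 17 and 17 without the filter, 8 and 18 with DESeq2, and 9 above in the 9-library fit; limma voom called 3 below. All genes called for it were 2366, 1841, 1050 and 139 in the order no filter, DESeq2, 9-library fit and limma voom.

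Leaving out each library in turn, members higher and lower ranged over 4 to 22 and 7 to 37 with copper in WT cells, 12 to 42 and 24 to 43 with copper in KO cells, 12 to 37 and 9 to 44 between the untreated lines, 6 to 23 and 7 to 38 between the lines in copper, and 0 to 41 and 0 to 38 for the interaction. All genes called ranged over 734 to 3779, 2372 to 6635, 2058 to 6738, 675 to 3561 and 13 to 5882 in that order. The highest counts came without KO untreated replicate 3, which leaves KO untreated replicates 1 and 2; the cause was not tested. Depth limits low members: in the shallowest library 3 counts equal 3.07 CPM.

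The replicate numbers did not pair the samples throughout: of 18 pairs with the same number, 2 had a correlation of deviations over 0.1. Both were between KO untreated and WT copper libraries, at 0.495 for replicate 1 and 0.610 for replicate 3. KO untreated replicate 2 and WT copper replicate 1, with unlike numbers, had 0.407. Deviations of these 2 groups were thus partly shared, and the cause was not tested. With the replicate block, 139 of the 163 calls were kept, and the interaction called 1 member above 0, 3 below and 113 genes. No other count moved by over 1.5 times with the block.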
